A study of Mus musculus with 2 samples.

Results

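The genes described here are 7 genes of the cardiac-type sarcomere, chosen by name: the myosin heavy chains Myh6 and Myh7, the myosin light chains Myl4 and Myl7, the actin gene Actc1, and the troponin genes Tnnt2 and Tnnc1. They are 7 of 31870 genes and unnamed transcripts on the array, and of 21002 features (a gene or an unnamed transcript, each read from its brightest probe) that were measured. Every probe of the array that carries one of these names was taken, which gave 8 probes, 2 of them for Myh6. The genes were chosen with the ratio between Rbpj-cKO and control ureters known. That ratio is therefore given for them as a description, with no test.

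Ureters of NMRI mouse embryos at E18.5 were compared by 2-colour microarray. Rbpj-cKO embryos had the genotype Tbx18(cre/+);Rbpj(fl/fl), in which cre recombinase made from 1 Tbx18 allele acts on floxed Rbpj alleles. Tbx18 is known to be expressed by the mesenchymal cells that form the ureter wall. Control embryos had the genotype Rbpj(fl/?), with no cre allele listed. Loss of Rbpj and presence of the Tbx18 cre allele therefore cannot be told apart. There were 2 arrays. The male array set Rbpj-cKO RNA (AlexaFluor647, red) against control RNA (AlexaFluor555, green), and the female array had the dyes swapped, so sex and dye orientation cannot be told apart. The number of embryos behind each RNA, and any pooling, are not stated in the labels.

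The sarcomere is the contractile unit of striated muscle, in which thick filaments of myosin pull on thin filaments of actin. Each myosin heavy chain carries an essential and a regulatory light chain, and the troponin complex on the thin filament lets calcium switch contraction on. Smooth muscle, the muscle type of the ureter wall, has no sarcomeres and uses its own myosin and actin genes. RBPJ binds DNA and, together with the cleaved part of a Notch receptor, switches on Notch target genes.

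The probes define what was measured, so their sequences come first. Each is a 60-base oligonucleotide printed as 1 spot per array, with positions on mm9 as the files give them. No annotation of that build was used, so the exon of each probe is not given. The heavy chain genes lie beside each other on chromosome 14. The first Myh6 probe (chr14:55584132-55584191, minus strand) starts at position 308 of the transcript as the files list it, and the second (chr14:55560774-55560833, minus strand) starts at 6003, 23.4 kb away in the genome. They are shown because they gave different signals, the one at 308 in full and the one at 6003 as its first 30 bases.
Myh6 probe at 308: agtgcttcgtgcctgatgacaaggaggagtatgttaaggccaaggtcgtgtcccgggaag
Myh6 probe at 6003: gcacgacgaggaataacctctccagcagac

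The Myh7 probe (chr14:55589581-55589640, minus strand, transcript position 5938), the Myl4 probe (chr11:104448441-104448500, plus strand, position 790) and the Actc1 probe (chr2:113873064-113873123, minus strand, position 1291) are also given by their first 30 bases. They are shown because paralogous genes of the myosin and actin families are alike, and the reading depends on the letters of the probe.
Myh7 probe: atgaggagtagctcttgtgctacccagctc
Myl4 probe: gttactgttacggagtattggactcacatg
Actc1 probe: ctctcatcagtcattgtacagtttgtttac

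The other probes also have 60 bases each, but their ends lie farther apart than that in the genome. From end to end the Myl7 probe spans 250 bases (chr11:5798186-5798435, minus strand, transcript position 129). The Tnnt2 probe spans 313 bases (chr1:137747976-137748288, plus strand, position 811) and the Tnnc1 probe spans 417 bases (chr14:32023360-32023776, plus strand, position 212). All of these probes are printed in full.
Myl7 probe: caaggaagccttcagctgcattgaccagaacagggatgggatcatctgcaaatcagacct
Tnnt2 probe: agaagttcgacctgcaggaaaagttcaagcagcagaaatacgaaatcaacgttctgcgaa
Tnnc1 probe: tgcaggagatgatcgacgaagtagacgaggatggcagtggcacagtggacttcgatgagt

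The longest run of bases that any of the 8 probes shared with a probe of another gene on the array was 12 to 14 of 60. That comparison covers the array's probes only and not whole transcripts of paralogous genes.

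Across the 4 channels, 66.85% to 71.07% of probe spots stood well above background. The median signal over local background differed by dye, at 6.75 (male array) and 6.47 (female array) in red and 13.46 and 11.31 in green. No probe spot was saturated, and the number of arrays limits the precision. Turned to Rbpj-cKO over control, the ratios of the arrays had a Pearson correlation of -0.18 across the 21002 features, which are not independent replicates. Across all features the arrays thus did not reproduce each other's ratios. Rbpj, the targeted gene, gave log2 ratios of -1.58 (male array) and -0.93 (female array) from its brighter probe, and of -0.42 and -1.12 from the other. Its mean of -1.25 had a limma adjusted p of 0.0783. Tbx18 had log2 ratios of -0.11 and 0.47 (limma adjusted p = 1). Whether either Rbpj probe lies within the deleted stretch was not analysed here. All values come from whole ureters, so fewer cells of a type and less RNA per cell cannot be told apart.

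Transcripts of 5 of the 7 genes were at least 1.5-fold lower in Rbpj-cKO ureters on both arrays, and Myh7 and Myl7 stood close to equal in both. The mean log2 ratios ran from -2.36 for Myh6 through Myl4 (-1.40), Tnnt2 (-0.996), Tnnc1 (-0.88) and Actc1 (-0.62) to Myl7 (-0.08) and Myh7 (-0.06). All 7 genes passed the filter on dim probes through the Rbpj-cKO and the control channels alike. Over all features 0.433% were at least 1.5-fold lower on both arrays. Lower by any amount on both arrays were 6 of the 7 genes, against 19.7% of all features. The median log2 ratio of the 7 genes was -0.88, against 0.01 for all features. The genes were chosen on this ratio, so nothing is read from these shares.

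**Figure D1:**
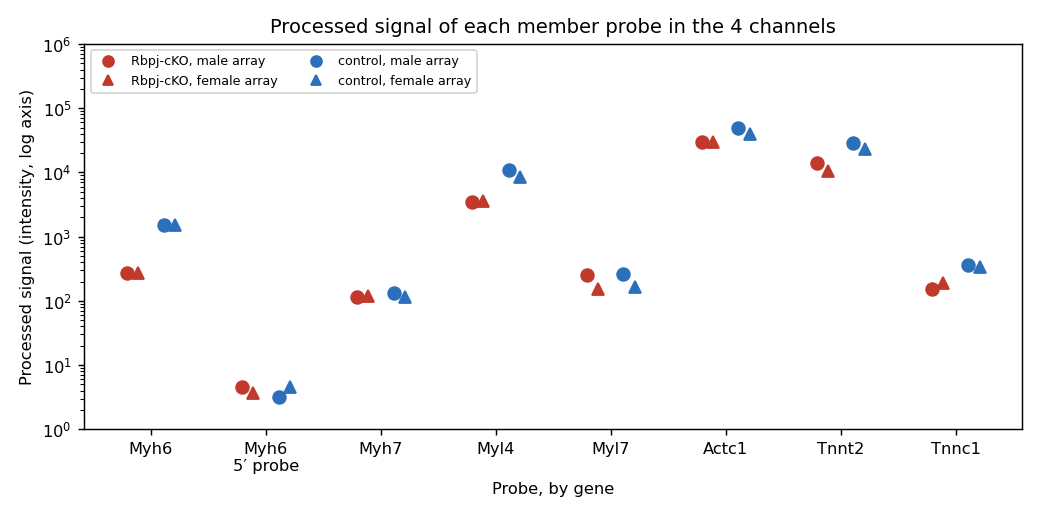
Processed signal (intensity, log axis) of the 8 probes, with Rbpj-cKO in red to the left of control in blue, circles for the male and triangles for the female array. Signals of Myh6 (probe at 6003), Myl4, Actc1, Tnnt2 and Tnnc1 were lower in both Rbpj-cKO channels than in both control channels, while those of Myh7 and Myl7 overlapped and the 5′ Myh6 probe stayed below 5 in all 4 channels.

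Myh6 encodes alpha myosin heavy chain, the fast motor of the atria and of the adult rodent heart. Its probe at 6003 had processed signals of 269 and 275 in Rbpj-cKO ureters (male, then female array), against 1499 and 1527 in control ureters. The Rbpj-cKO channels nearly coincided, as did the control channels, and the groups did not overlap. The spots stood 9.76 and 18.2 times above their local background in the Rbpj-cKO channels, against 94.98 and 64.4 times in the control channels. The log2 ratio was -2.31 (male array) and -2.41 (female array), a mean of -2.36 (SD 0.07, n = 2), or 5.14-fold lower in Rbpj-cKO ureters. Of the 21002 features none had a lower mean. Feature Extraction's own error of the ratio, carried from the spot's pixels and background, was 0.31 on the log2 scale on each array.

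The Myh6 probe at 308 was not well above background in any channel. Its processed signals were 4.53 and 3.71 in Rbpj-cKO ureters, against 3.21 and 4.48 in control ureters. The level of Myh6 therefore rests on 1 probe close to the 3′ end of the transcript. The labelling kit is known to start cDNA synthesis at the poly(A) tail, which favours 3′ ends, and its part in the difference between the probes was not tested.

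Myh7 encodes beta myosin heavy chain, the slow motor of fetal ventricles and slow skeletal fibres. It had processed signals of 116 and 119 in Rbpj-cKO ureters, against 132 and 116 in control ureters. The channels of both genotypes overlapped. The log2 ratio was -0.13 (male array) and 0.01 (female array) (mean -0.06, SD 0.10, n = 2). Its spots stood 4.67 and 11.3 times above background in the Rbpj-cKO channels, and 9.38 and 5.37 times in the control channels, near the median spot of each channel. The heavy chain genes thus differed by more than 2 log2 units on either array although they are neighbours in the genome. The nearest measured gene beyond Myh6, Cmtm5, had log2 ratios of -0.24 and -0.42, and the nearest beyond Myh7, Ngdn, had 0.10 and 0.04. Neither passed the limma test over all features (adjusted p = 1 for each).

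**Figure D2:**
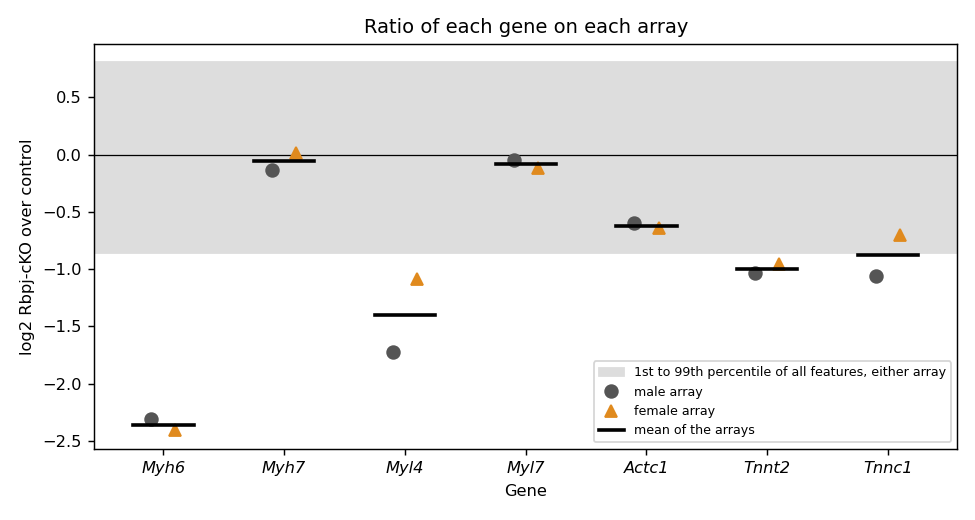
Log2 ratio of Rbpj-cKO over control for each gene on the male (circle) and the female array (triangle), with the mean as a bar and the 1st to 99th percentile of all 21002 features shaded. Myh6, Myl4 and Tnnt2 lie below the shaded band on both arrays, Tnnc1 lies below it on the male array, and Actc1, Myl7 and Myh7 lie within it.

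Of the light chains, Myl4 was lower in Rbpj-cKO ureters and Myl7 stood near equal. Myl4 encodes the essential light chain of embryonic muscle and the atria. It had processed signals of 3415 and 3628 in Rbpj-cKO ureters, against 10980 and 8341 in control ureters. Both Rbpj-cKO channels were below both control channels. The log2 ratio was -1.72 (male array) and -1.09 (female array), with a mean of -1.40 (SD 0.45, n = 2), or 2.65-fold lower in Rbpj-cKO ureters. The arrays differed more for Myl4 than for any of the other 6 genes. With each array centred on its median in place of loess (median centring), however, Myl4 had -1.44 and -1.26. Under that setting all of the other genes except Myh7 differed more between the arrays.

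Myl7 encodes the regulatory light chain of the atria. It had processed signals of 253 and 154 in Rbpj-cKO ureters, against 258 and 163 in control ureters. The signal was higher on the male array in both genotypes, and within each array the channels were nearly equal. The log2 ratio was -0.05 (male array) and -0.12 (female array) (mean -0.08, SD 0.05, n = 2). With median centring the ratios of Myl7 were 0.07 and -0.14. The atrial genes Myh6, Myl4 and Myl7 thus had means of -2.36, -1.40 and -0.08, and did not share one ratio.

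Genes of the thin filament were lower by smaller amounts. Tnnt2, the cardiac troponin T that ties the complex to tropomyosin, had processed signals of 14255 and 10600 in Rbpj-cKO ureters, against 28473 and 23401 in control ureters. The groups did not overlap. On the male array the log2 ratio was -1.03 and on the female array -0.96, with a mean of -0.996 (SD 0.06, n = 2), or 1.99-fold lower in Rbpj-cKO ureters. The spots were bright, at 421 and 702 times the background in the Rbpj-cKO channels and 1579 and 807 times in the control channels. With median centring, the ratios of Tnnt2 were -0.59 and -1.31.

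Tnnc1, the calcium-binding troponin C of heart and slow skeletal muscle, had processed signals of 153 and 187 in Rbpj-cKO ureters, against 361 and 339 in control ureters. Both Rbpj-cKO channels were below both control channels. On the male array the log2 ratio was -1.06 and on the female array -0.70, with a mean of -0.88 (SD 0.25, n = 2), or 1.84-fold lower in Rbpj-cKO ureters.

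Actc1, the cardiac alpha actin, had processed signals of 30081 and 29373 in Rbpj-cKO ureters, against 48520 and 39764 in control ureters. The groups did not overlap in this signal. On the male array the log2 ratio was -0.60 and on the female array -0.64, with a mean of -0.62 (SD 0.03, n = 2), or 1.54-fold lower in Rbpj-cKO ureters. The mean lies just past the 1.5-fold mark, and how evenly the arrays shared it depended on the scaling. With Agilent's processed signals the ratios were -0.69 and -0.44, and with median centring, which does not correct a dye bias that changes with brightness, they were -0.05 and -1.13. Under both of these settings, and with the authors' series value table, 4 rather than 5 of the genes were at least 1.5-fold lower on both arrays.

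**Figure D3:**
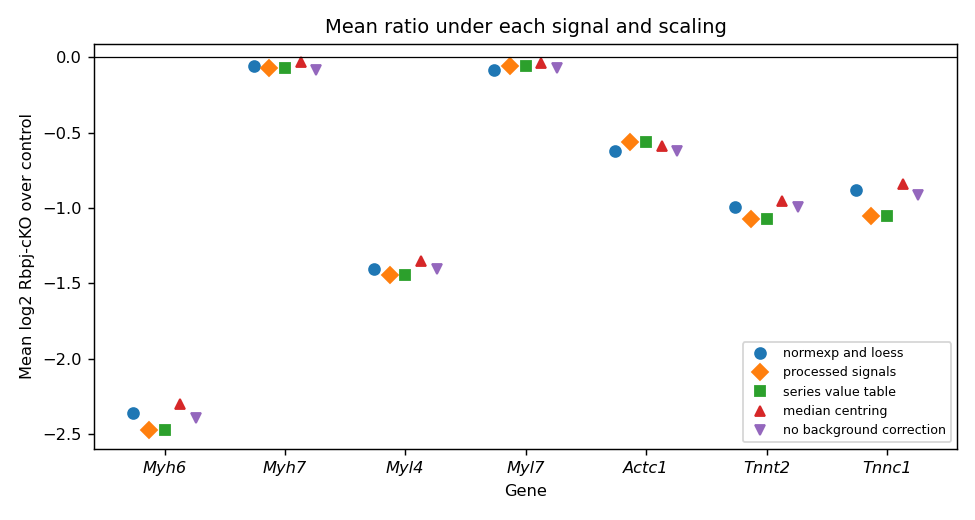
Mean log2 ratio of Rbpj-cKO over control (n = 2 arrays) for each gene from normexp and loess, from Agilent's processed signals, from the authors' series value table, with median centring and with no background correction. The order Myh6, Myl4, Tnnt2, Tnnc1, Actc1 from lowest up is the same under each of these, with Myh7 and Myl7 next to 0.

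The other genes of the cardiac and slow-muscle sarcomere had a median closer to 0 than that of the 7 genes (-0.88), though single genes overlapped. The 7 genes were chosen with their ratio known, so nothing is read from this order. Of 28 listed, 19 were measured, none passed the limma test over all features in either direction, and their median log2 ratio was -0.11, against 0.01 for all features. Over all features 0.0857% passed as lower and 0.0381% as higher, and at an unadjusted p under 0.05 in the limma fit 1 of the 19 was lower, against 1.9% of all features. Lower on both arrays were 11 and higher on both was 1, against 19.7% and 21.7% of all features. By at least 1.5-fold on both arrays 1 was lower and 0 higher, against 0.433% and 0.205% of all features. The Z-disc gene Ldb3 was the lowest, with -0.63 and -0.78 (mean -0.71, limma adjusted p = 0.545), although its other probe had a mean of -0.17. The mean of -0.71 was below that of Actc1 (-0.62). The ventricular regulatory light chain Myl2 was the highest, with -0.01 and 0.25 (adjusted p = 1).

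Other subunits and partners in the same filaments, singled out after their values were seen, had ratios of -0.48 to 0.07. Cardiac troponin I, Tnni3, had log2 ratios of -0.19 (male array) and -0.02 (female array), and the ventricular essential light chain Myl3 had -0.04 and -0.26. The myosin-binding protein Mybpc3 had 0.07 and -0.05. Slow skeletal troponin I, Tnni1, had -0.17 and -0.36, and the tropomyosin Tpm1 had -0.37 and -0.0042. Tmod1, which caps thin filaments, had -0.44 and -0.17, and Myom1, of the M-band, had -0.48 and -0.18. Processed signals of Tnni3 were 319 and 216 in Rbpj-cKO ureters, against 365 and 234 in control ureters. None of these 7 genes passed the limma test over all features (adjusted p = 1 for each).

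Markers of heart muscle cells outside the sarcomere were also followed, since several of the 7 genes are used to identify such cells. Of 28 listed, 19 were measured and none passed the limma test in either direction. Their median was -0.07, with 9 lower and 6 higher on both arrays, against 19.7% and 21.7% of all features. By at least 1.5-fold on both arrays 1 was lower and 0 higher, against 0.433% and 0.205% of all features. At an unadjusted p under 0.05 in the limma fit 4 were lower and 4 higher, against 1.9% and 1.47% of all features. The fatty acid-binding protein Fabp3 was the lowest, with -0.92 and -0.85 (mean -0.89, limma adjusted p = 0.249), and its other probe had a mean of -0.999. The protease Corin was the highest, with 1.17 and 0.17 (mean 0.67, adjusted p = 1). Corin was well above background in only 1 of 2 control channels, and its mean was 1.85 with Agilent's processed signals and 1.47 with the series value table.

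Of 10 defining cardiomyocyte markers, 7 were well above background in all 4 channels. The 10 include the sarcomere genes Myl2, Myl3, Tnni3 and Mybpc3, which are also in the list of other sarcomere genes. Tnni3 and Myl2 had the highest signals of the 10 in every channel, at 319 and 163 in Rbpj-cKO ureters on the male array. The factors Tbx5 and Tbx20 were not well above background in any channel, and the natriuretic peptide Nppb was so in 1 control channel. The atrial peptide Nppa had processed signals of 24.1 and 13.8 in Rbpj-cKO ureters, against 27.3 and 21.2 in control ureters. Nkx2-5, a cardiac homeobox factor, had 25.2 and 15.2 in Rbpj-cKO ureters, against 17.2 and 18.2 in control ureters. Summed over the 10 markers, the signal was 824 and 618 in Rbpj-cKO ureters, against 772 and 608 in control ureters. This order rested on the ventricular homeobox factor Irx4, singled out after its values were seen, with 151.8 and 106.5 in Rbpj-cKO ureters, against 73.4 and 81.0 in control ureters. Without Irx4 the sum over 9 markers was 671.7 and 511.4 in Rbpj-cKO ureters, against 699.1 and 527.1 in control ureters.

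**Figure D4:**
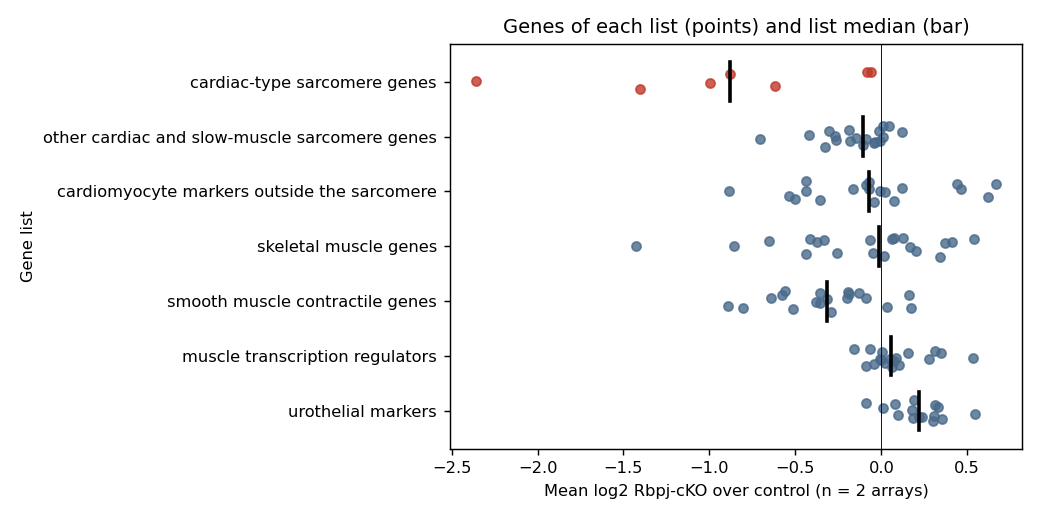
Mean log2 ratio of Rbpj-cKO over control (n = 2 arrays) for every measured gene of each list, with the list's median as a bar. The medians are -0.88 for the 7 cardiac-type sarcomere genes, -0.11 for other sarcomere genes, -0.07 for cardiomyocyte markers, -0.02 for skeletal muscle genes, -0.32 for smooth muscle contractile genes, 0.06 for muscle transcription regulators and 0.22 for urothelial markers.

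Of 28 skeletal muscle genes listed, 20 were measured, Ckm fell and 19 did not pass the limma test, where 0.0857% of all features passed as lower. At an unadjusted p under 0.05 in the limma fit 4 were lower and 1 higher, against 1.9% and 1.47% of all features. At least 1.5-fold lower on both arrays were 3 and higher 0, against 0.433% and 0.205% of all features. Lower on both arrays by any amount were 8 and higher 5, against 19.7% and 21.7% of all features, and the median was -0.02. Ckm, the muscle creatine kinase, had processed signals of 777 and 568 in Rbpj-cKO ureters, against 2099 and 1669 in control ureters. Its log2 ratio was -1.42 and -1.43 (mean -1.43, limma adjusted p = 0.0210), or 2.69-fold lower in Rbpj-cKO ureters. Its adjusted p ranged from 0.000572 to 0.982 over 8 other settings and missed the threshold of 0.05 under 5 of them. Fast troponin C, Tnnc2, had -0.88 and -0.84 (adjusted p = 0.276), near the -0.88 of its cardiac relative Tnnc1. The highest member, the myosin-binding protein Mybpc1, had 0.88 and 0.21 (adjusted p = 1). Of 8 defining skeletal muscle markers, 6 were well above background in all 4 channels and Myf5 in none. Their summed signal was 5458 and 4704 in Rbpj-cKO ureters, against 8459 and 6650 in control ureters, and the part of this in the lower sarcomere genes was not tested. Most of the sum came from Acta1, with 3959 and 3531 in Rbpj-cKO ureters, against 5462 and 4172 in control ureters. Ckm is also among the 8. The muscle factors Myod1 and Myog had signals of 8.57 to 25.5 over the channels and were not lower on both arrays.

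Smooth muscle contractile genes, the tissue's own muscle genes, had a median below that of all features (0.01). The median of the 7 genes was lower (-0.88), but they were chosen with their ratio known, so that order is not read. All 19 listed were measured, and none passed the limma test over all features in either direction. At an unadjusted p under 0.05 in the limma fit 6 were lower and 0 higher, against 1.9% and 1.47% of all features. On both arrays 14 were lower and 2 higher, against 19.7% and 21.7% of all features. By at least 1.5-fold on both arrays 3 were lower and 0 higher, against 0.433% and 0.205% of all features. Their median was -0.32, with -0.30 (male array) and -0.20 (female array), or -0.04 and -0.71 under median centring. Synpo2, an actin-binding protein of the dense bodies, was the lowest, with -1.08 and -0.70 (mean -0.89, limma adjusted p = 0.276), and its other probe above background had a mean of -0.71. Flna, a filamin that crosslinks actin, was the highest, with 0.32 and 0.02 (adjusted p = 1). All 6 defining smooth muscle markers were well above background in all 4 channels. Their summed signal was 248123 and 218264 in Rbpj-cKO ureters, against 320824 and 255274 in control ureters.

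The 7 genes were also set against the smooth muscle median of the same array. For Myh6 the difference to that median was -2.01 (male array) and -2.20 (female array) on the log2 scale, with none of the 19 smooth muscle genes lower than Myh6 on either. For Myl4 it was -1.42 and -0.88, again with none of the 19 lower. For Tnnt2 it was -0.73 and -0.75, for Tnnc1 -0.76 and -0.50, and for Actc1 -0.30 and -0.44. Of the smooth muscle genes, 6 (male array) and 3 (female array) were lower than Actc1, 1 and 3 were lower than Tnnc1, and 1 and 0 were lower than Tnnt2. Myh7 and Myl7 lay above the median on both arrays. The 7 genes were chosen with their ratio known, so these differences and counts are a description only. The part of lower smooth muscle levels in those of the 7 genes was not tested.

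**Figure D5:**
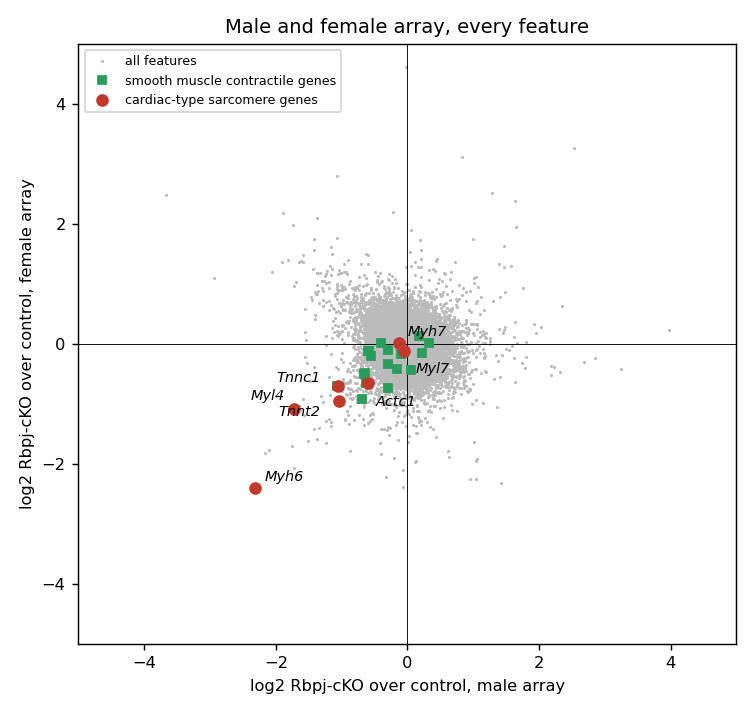
Log2 ratio of Rbpj-cKO over control on the male (x axis) and the female array (y axis) for all 21002 features in grey, smooth muscle contractile genes as green squares and the 7 cardiac-type sarcomere genes in red. Myh6, at -2.31 and -2.41, lies beyond all smooth muscle genes, and Myh7 and Myl7 lie next to the origin.

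Regulators of muscle transcription had a median of 0.06. Of 19 listed, 18 were measured and none passed the limma test in either direction. In the limma fit 0 were lower and 1 higher at an unadjusted p under 0.05, against 1.9% and 1.47% of all features. Lower on both arrays was 1 and higher were 4, against 19.7% and 21.7% of all features, and 13 had opposite signs on the arrays. Mef2c, a MADS-box factor of muscle genes, was the lowest at -0.29 and -0.03, and Isl1, a LIM homeobox factor of cardiac progenitors, the highest at 0.71 and 0.36 (adjusted p = 1 for each). Urothelial markers, which stand for the other main tissue of the ureter, were measured for all 15 listed. None passed the limma test, and 1 was higher and 0 lower at an unadjusted p under 0.05 in the limma fit, against 1.47% and 1.9% of all features. On both arrays 12 were higher and 0 lower, against 21.7% and 19.7% of all features. Their median was 0.22, with 0.09 (male array) and 0.28 (female array), but 0.62 and -0.17 under median centring. The basal keratin Krt5 was the highest at 0.56 and 0.53, though its other probe had a mean of 0.25, and Krt7 was the lowest at 0.02 and -0.20. The summed signal of 6 defining urothelial markers was 291845 and 284550 in Rbpj-cKO ureters, against 249876 and 235900 in control ureters, and the part of this in the lower sarcomere genes was not tested.

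Features with a pair of ratios most like that of Myh6 were found by the Euclidean distance between pairs, over the 2 arrays. The search took only measured features with a RefSeq gene symbol and left out the 7 genes. The nearest were the lectin Colec11 (-2.16 and -1.82, distance 0.604), Wfdc18 (-2.10 and -1.77, distance 0.672), the calmodulin-binding peptide Pcp4 (-1.75 and -1.70, distance 0.907), the chemokine Ccl11 (-1.51 and -1.61, distance 1.13) and the melanocortin receptor Mc4r (-1.37 and -1.59, distance 1.25). Nearest to Myl4 were the Ras-like GTPase Rergl (-1.71 and -1.16, distance 0.0791), the olfactory receptor Olfr558 (-1.65 and -1.03, distance 0.0890) and the Notch-induced repressor Heyl (-1.57 and -1.19, distance 0.181). Olfr558 was well above background in only 1 of 2 Rbpj-cKO channels. With Agilent's processed signals it had -4.88 and -2.52, against -1.68 and -1.20 for Myl4, so its nearness to Myl4 did not hold under that setting.

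The promoters were read for short motifs, 250 bases before to 50 after each RefSeq gene start (GRCm38.p6), on both strands. All 7 genes were found, with 9 promoter windows between them. TGGGAA, the core bound by RBPJ, was present in 1 of the 9 windows, that of Tnnc1, against 25.56% of 32851 windows of the same length. The CArG box, bound by the serum response factor, was present in 2, those of Myl7 and Actc1, against 1.63%. AGATAA, which zinc-finger factors of heart and gut bind, was present in 1, that of Tnnt2, against 11.18%, and the MEF2 motif in 0, against 3.19%. No matches of different motifs overlapped in these windows. A match describes letters only and is not a binding site. The windows of Actc1 and Myl7 are printed because they share the CArG box while their ratios differed, and that of Tnnc1 because it holds the RBPJ core, with each motif in capitals.
Actc1 promoter (chr2:114052826-114053125, minus strand, GRCm38.p6): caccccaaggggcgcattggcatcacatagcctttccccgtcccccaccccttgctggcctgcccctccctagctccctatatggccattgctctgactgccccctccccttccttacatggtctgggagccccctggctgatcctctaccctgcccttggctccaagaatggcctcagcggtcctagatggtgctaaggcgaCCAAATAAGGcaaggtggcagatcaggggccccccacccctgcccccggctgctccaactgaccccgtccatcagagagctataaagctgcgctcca
Myl7 promoter (chr11:5898733-5899032, minus strand, GRCm38.p6): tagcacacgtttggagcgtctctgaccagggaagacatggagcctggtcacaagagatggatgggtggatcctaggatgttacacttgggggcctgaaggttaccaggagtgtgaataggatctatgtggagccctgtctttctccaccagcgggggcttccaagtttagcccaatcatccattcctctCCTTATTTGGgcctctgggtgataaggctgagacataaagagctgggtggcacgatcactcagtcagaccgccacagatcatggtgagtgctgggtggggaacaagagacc
Tnnc1 promoter (chr14:31208062-31208361, plus strand, GRCm38.p6): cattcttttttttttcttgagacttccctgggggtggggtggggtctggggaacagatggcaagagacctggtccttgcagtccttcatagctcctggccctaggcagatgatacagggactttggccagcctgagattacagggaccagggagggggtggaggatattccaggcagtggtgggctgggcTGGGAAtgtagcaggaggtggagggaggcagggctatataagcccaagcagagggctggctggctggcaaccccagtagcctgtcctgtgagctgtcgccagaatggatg

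Counted in bases from the gene start, the CArG box begins at -47 in Actc1 and at -61 in Myl7, and the RBPJ core at -60 in Tnnc1. The windows of Myh6, the gene with the lowest ratio, of Myl4 and of Myh7 held none of the 4 motifs, which says only that these letters are not in those windows.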

How the data were processed

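The scanner files were made with Feature Extraction 10.7.3.1 (Agilent), a version taken from the submitters' processing notes. Mean and background signals, per the file headers, are raw spot intensity, processed signals are that intensity once background-subtracted and dye-normalized, and the log ratio and its error are on a log10 scale, red over green. The deposited series table holds a score, a signed fold whose making no source used here gives. It had a correlation of 0.987 and 0.990 with the log2 ratio of processed signals turned to Rbpj-cKO over control, a column median of 1 and no value between -1 and 1.

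Background correction of the mean signals used normexp (offset 50), followed by loess within arrays with control spots at weight 0. Outlier spots were left out, 200 (male array) and 274 (female array). Replicate spots were averaged. A probe was kept if both of its Rbpj-cKO channels, or both of its control channels, were well above background. RefSeq accessions (GRCm38.p6) named 26412 of the 39429 probes. A gene was read from its brightest probe. A two-sided limma test (limma 3.58.1 on R 4.3.3; lmFit, eBayes) was run over the 21002 features, with Benjamini-Hochberg adjustment and a threshold of 0.05. The p-values measure no spread beyond that between these 2 arrays. Each feature's variance, with 1 residual degree of freedom, was drawn toward a variance pooled over all features, with 10.2 prior degrees of freedom. A p-value thus rests more on the pooled variance than on the feature's own spread. An exact sign permutation over 2 arrays cannot go below 0.5. The fitting code was tested on simulated data.

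The 7 genes, the 6 gene lists and the rule for named genes were chosen with earlier results of these data known. The rule takes all 7 genes, Rbpj, Tbx18, the called members and the highest and lowest of each list, the genes nearest to Myh6 and Myl4, and the neighbours of Myh6 and Myh7. Defining cell type markers were named beside it. Promoter sequences are from RefSeq. Alternatives were other signals, scalings, filters, probe rules and priors, and each array alone.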

Additional observations from a re-analysis of the deposited data

Results flagged for a closer look

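Myh7 went opposite ways on the arrays, with -0.13 (male) and 0.011 (female) as its log2 ratios. Both were smaller than Feature Extraction's own error of the ratio, 0.21 on the log2 scale on each array. Under median centring both were negative (-0.061 and -0.0067). With 1 array per sex the difference was not tested, and sex and dye orientation cannot be told apart.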

How the results depend on the processing

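The mean ratios of all 7 genes kept their sign under the 8 other settings, and their median ran from -1.05 to -0.84, or from -1.03 to -0.70 with each array alone. With the female array alone Myh7 had 0.01. No paired analysis was possible because each array already sets Rbpj-cKO against control RNA, so there is 1 ratio per replicate number. Tests were not run on 1 array, which leaves no residual degree of freedom. The causes of the changes below were not tested.

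Calls over all features (18 lower and 8 higher) were 0 and 0 with Agilent's processed signals, with median centring, with the series value table and without a filter on dim probes, where Ckm was no longer called (0 called skeletal muscle genes), nor when all probes of a gene were averaged (6 lower and 4 higher). They were 39 and 27 with no background correction, and 16 were higher when the prior variance followed intensity. Features at least 1.5-fold lower and higher on both arrays (91 and 43) were 167 and 121 with processed signals and 156 and 104 with the series table. The median of other sarcomere genes was -0.17 with processed signals and with the series table, and -0.13 to -0.048 with each array alone. That of cardiomyocyte markers was -0.017 with median centring, -0.0048 without the filter, and -0.080 to -0.067 with each array alone. That of skeletal muscle genes was -0.00049 with processed signals, -0.024 with median centring, -0.025 with no background correction, -0.050 with the series table, 0.014 without the filter, and -0.0470 to -0.0468 with each array alone. Smooth muscle genes had -0.30 to -0.20 with each array alone. With the male array alone Tbx18 had -0.11, Myl2 -0.011 and Krt7 0.020, each turned in sign, against 0.47, 0.25 and -0.20 with the female array alone. Rbpj passed with no background correction (limma adjusted p = 0.0052) and with the intensity trend (0.0128), and not under the other 6 settings (0.0513 to 1.00).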
